A study of Mus musculus with 36 samples.

Results

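Solute carriers are membrane proteins that move small molecules across the cell surface and across the membranes of mitochondria, lysosomes and vesicles, and the genes for them are named Slc, a family number, a letter and a member number. The members described here were all genes whose symbol had exactly that form in both the microglial and the astrocyte gene table, pseudogenes excluded. They were 208 of the 15385 genes in the microglial table and of the 14551 genes in the astrocyte table. The form matched 231 genes in the microglial table and 221 in the astrocyte table, and 23 and 13 of these stood in that table alone. The 208 members fell into 44 families by family number, 11 of them with 1 member, and the largest was family 25 with 40 mitochondrial carriers. The naming rule itself uses no measured value.

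Carriers are usually grouped by what they move: amino acids, sugars, metals, ions, lactate and other carboxylates, vitamins, nucleosides or the metabolites that mitochondria exchange with the cytosol. Astrocytes are known for the uptake of glutamate released by neurons and for supplying glutamine and lactate, and microglia, the macrophages of the brain, are known to change their handling of glucose, arginine, cystine and iron when they are activated. Some amino acid carriers of the surface are built from a light chain, which moves the solute, and a heavy chain, which brings it to the membrane.

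Cells came from C57BL/6 pups 2 to 4 days old, whose brains were pooled and grown as mixed glia for 12 days before microglia were taken by CD11b selection and astrocytes from the fraction that microglia had left, by positive selection with an APC kit whose target the labels do not name. Microglia received 6 treatments of 4 h, with 4 libraries each. They were DMSO (the vehicle), Nec-1s (which blocks RIPK1 kinase activity), T/5z (TNF plus 5z-7, which inhibits TAK1), T/5z/N (the same with Nec-1s), T/S/Z (TNF with a Smac mimetic and the pan-caspase inhibitor zVAD) and T/S/Z/N (the same with Nec-1s). Astrocytes received DMSO, Nec-1s, T/S/Z and T/S/Z/N, with 3 libraries each. No group received TNF alone or an inhibitor other than Nec-1s alone, so the effects of TNF and of the added inhibitors cannot be told apart. Per the labels the microglial and astrocyte libraries were made by different sequencing providers, and the tables were normalized separately, so levels are compared within a table only.

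Values are log2 FPKM, read here as log2(FPKM + 1) from the values themselves, a level per exon length on which a difference of 1 is a doubling for well-expressed genes and understates the change of low ones. All 8 microglial markers passed a level of 1 in the microglial table, and their summed level, in which C1qa weighs most, was between 12.3 and 12.6 in every library. Single markers differed, with mean levels in DMSO and with T/5z of 7.98 and 6.40 for Cx3cr1, 2.39 and 1.78 for P2ry12 and 3.32 and 4.90 for Tmem119. In the astrocyte table all 7 astrocyte markers were present and summed to 11.4 to 11.6, and markers of other cells were also detected. In DMSO the 5 of fibroblasts and mural cells summed to 9.01 to 9.04 and the 8 of microglia to 6.22 to 6.33. Only 8 of 9 listed markers of the oligodendrocyte lineage, 2 of 5 of neurons (Map2 and Tubb3) and 2 of 4 of endothelium (Cdh5 and Flt1) were present. They summed to 6.67 to 6.89, 6.11 to 6.33 and 3.87 to 3.97. With T/S/Z all these sums, in the same order, were 6.59 to 6.73, 5.54 to 5.64, 5.96 to 6.47, 5.67 to 5.71 and 2.76 to 2.89. With T/S/Z/N they were 8.71 to 8.73, 6.08 to 6.16, 6.13 to 6.20, 5.84 to 5.92 and 3.65 to 3.92. The fibroblast and mural markers moved most, and the part of such cells in the astrocyte results was not tested. The files give no counts. In the astrocyte libraries and in replicate 4 of the microglia low values still moved in steps worth 1 read or fragment, and a median tested member stood on 1112.5 to 1336 such steps in astrocytes and 711.5 to 1011 in microglia, the lowest on 18.6 to 57.7 and 12.8 to 58.2. The microglial values had been adjusted so that each gene had the same mean in every replicate, which makes the spread within a group smaller than that between cultures. In bulk RNA fewer cells of a type and less RNA per cell cannot be told apart.

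After 4 h without a stimulus, the members spanned the whole range of expression. In microglia with DMSO their median level was 2.88, against 2.37 over all genes, with 157 of 208 members at 1 or above, 62 at 4 or above and 16 at 6 or above. The 5 highest were Slc3a2, the heavy chain shared by several amino acid carriers, at 8.20, 8.20, 8.23 and 8.23, Slc15a3, a lysosomal peptide and histidine carrier, at 7.99, 8.05, 7.89 and 8.08, Slc25a3, the mitochondrial phosphate carrier, at 7.94, 7.95, 7.95 and 7.98, Slc37a2, a glucose-6-phosphate carrier, at 7.72, 7.72, 7.72 and 7.86, and Slc11a1, the divalent metal pump of phagosomes, at 7.60, 7.62, 7.80 and 7.81. The ranges of Slc15a3 and Slc25a3 overlapped, as did those of Slc37a2 and Slc11a1. In astrocytes with DMSO the median member stood at 3.46, against 3.45 over all genes, with 200 members at 1 or above. There the highest were Slc25a5, an ADP/ATP exchanger, at 8.14, 8.01 and 8.19, Slc1a3, a glutamate carrier, at 7.90, 7.94 and 8.00, Slc25a3 at 7.75, 7.86 and 7.74, Slc25a4, the other ADP/ATP exchanger, at 7.76, 7.58 and 7.62, and Slc38a3, a glutamine carrier, at 7.11, 6.90 and 6.90. The ranges of Slc25a3 and Slc25a4 overlapped. Carriers typical of astrocytes that were near 0 in the microglial table and were not tested there included Slc1a2 (glutamate) at 0.10, 0.39, 0.22 and 0.44 and Slc4a4 (bicarbonate) at 0.22, -0.07, 0.16 and 0.16.

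A gene was tested when its level reached 1 in no fewer than 4 microglial or 3 astrocyte libraries, the sizes of the groups, and it was called when the fold change exceeded 1.5 with an adjusted p under 0.05 by limma. This left 163 of 208 members in microglia and 202 in astrocytes, with 162 in both, 40 in astrocytes alone, 1 in microglia alone and 5 in neither. With T/5z in microglia 27 members were higher and 34 lower than in DMSO, that is 16.6% and 20.9% of those tested, against 11.1% and 13.3% of all tested genes. T/S/Z raised 35 members and lowered 39, 21.5% and 23.9%, against 12.2% and 17.5% of all tested genes, and this balance turned with the scaling, to 38 higher and 29 lower after median centring, 34 and 29 after quantile normalization and 29 and 20 with 5 added before the log. Both stimuli were compared with the same DMSO libraries. In spite of these shares the median change of the members with T/5z was -0.08 and that with T/S/Z -0.12, near the -0.06 and -0.08 over all tested genes. In astrocytes T/S/Z raised 17 members and lowered 9, 8.42% and 4.46%, against 6.39% and 8.99% of all tested genes, and 20 of the 25 calls were upward after median centring and 20 of 24 after quantile normalization. With ordinary per-gene variance in place of the moderated one, 5 members were called there. Nec-1s alone called no member by limma: 0 of 163 in microglia and 0 of 202 in astrocytes, with 22 and 9 members at an unadjusted p under 0.05, as had 892 of all 10524 tested genes and 790 of 13842. All tested genes were called in 0% of cases in microglia and 0.0144% in astrocytes.

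Nec-1s added to a stimulus was compared with the same stimulus libraries that were compared with DMSO. After T/5z it raised 11 members and lowered 12 of 163, against 2.64% and 4.52% of all tested genes. After T/S/Z it raised 11 and lowered 15, against 5.35% and 6.72%. These splits depended on the scaling. Upward calls were 9 of 21 and 7 of 20 after T/5z, and 4 of 17 and 5 of 21 after T/S/Z, with quantile normalization and median centring. With 5 added before the log they were 3 of 13 after each stimulus. In astrocytes 1 of 202 members was called after Nec-1s was added to T/S/Z, upward, against 1.51% of all tested genes higher and 1.59% lower, and 71 members had an unadjusted p under 0.05, as did 4134 of all 13842 tested genes. Compared with DMSO, 22 members were higher and 15 lower with T/5z/N (6.16% and 6.69% of all genes), 28 and 24 with T/S/Z/N (6.2% and 7.87%), and, in astrocytes, 10 and 7 with T/S/Z/N (4.36% and 4.72%). For that last comparison 13 of 18 calls were upward with quantile normalization and with median centring, and 10 of 12 with 5 added before the log. T/S/Z set directly against T/5z gave 17 members higher and 6 lower, against 5.42% and 4.42% of all tested genes.

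**Figure D1:**
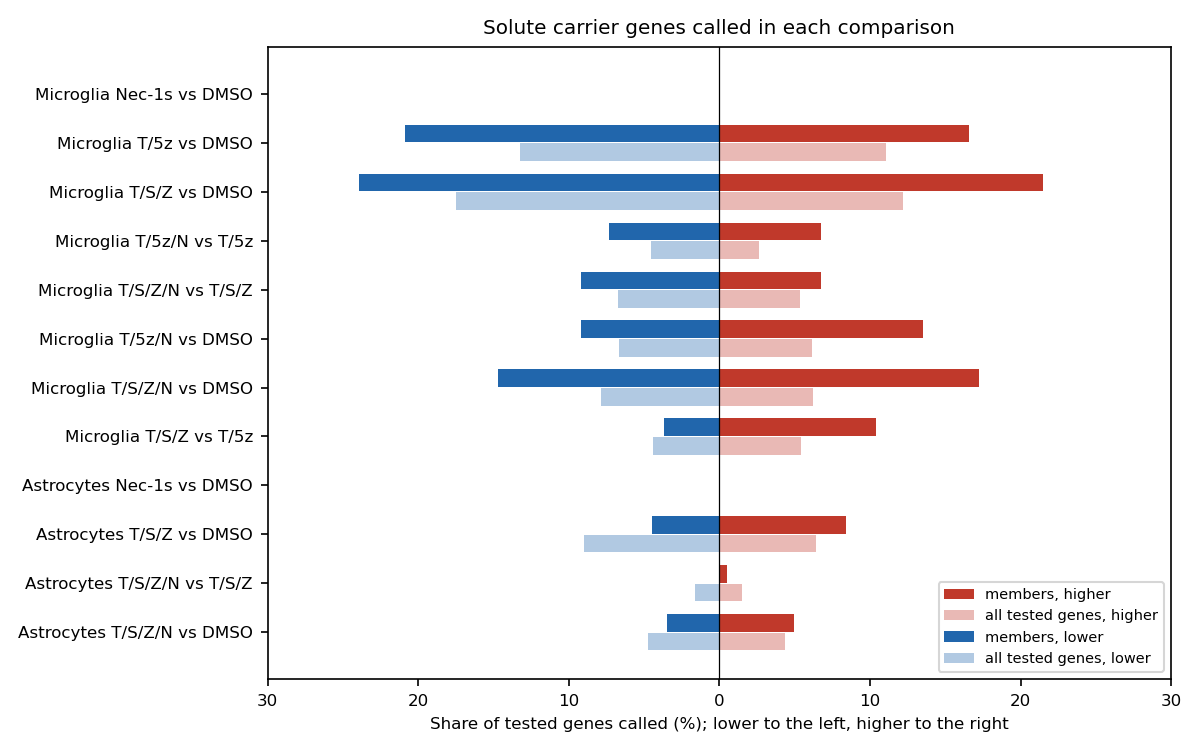
Share of tested solute carrier genes (dark bars) and of all tested genes (light bars) called in each comparison, in percent, with lower calls to the left of 0 and higher calls to the right. Members exceeded all genes in both directions for the 2 microglial stimuli, while in astrocytes the lower share of the members (4.46%) was below that of all genes (8.99%).

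Among the amino acid carriers of microglia the cystine carrier had the largest rise with T/S/Z. Slc7a11, the light chain of the exchanger that imports cystine and exports glutamate, was higher in every library of both microglial stimuli, and Nec-1s lowered it after each. In microglia its level was 2.77, 2.65, 2.51 and 2.14 in DMSO, 5.80, 5.77, 5.70 and 5.73 with T/5z and 6.15, 6.39, 6.83 and 6.95 with T/S/Z. The groups did not overlap, and T/S/Z libraries were also above those of T/5z. The rise was 3.24 (SE 0.09, adjusted p = 6.7e-07) with T/5z and 4.06 (SE 0.20, adjusted p = 1.99e-06) with T/S/Z on the log2 scale. Its level with Nec-1s was 4.68, 4.48, 4.34 and 4.76 in T/5z/N and 5.69, 5.69, 5.79 and 6.07 in T/S/Z/N, below the stimulus and above DMSO in every library. The changes made by Nec-1s were -1.19 (SE 0.07, adjusted p = 6.09e-06) and -0.77 (SE 0.09, adjusted p = 0.000262). In astrocytes Slc7a11 stood at 2.90, 3.01 and 3.02 in DMSO, 3.09, 3.03 and 3.12 in T/S/Z and 4.02, 3.97 and 3.99 in T/S/Z/N. The T/S/Z change of 0.10 (SE 0.09, adjusted p = 0.397) did not pass, and the 3 libraries that also received Nec-1s were the highest, 0.91 (SE 0.09, adjusted p = 0.00189) above T/S/Z. It was the member called in that comparison, a call lost with ordinary per-gene variance (limma without moderation, adjusted p = 0.191). The heavy chain of this exchanger, Slc3a2, was at 8.76, 8.79, 8.78 and 9.04 with T/S/Z in microglia. All 4 libraries were above DMSO, and the rise of 0.63 (SE 0.06, adjusted p = 3.6e-05) rested on replicate 4, without which it was 0.57 and under the fold required. After quantile normalization it was 0.18.

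The promoter of Slc7a11 is shown because this member had the largest rise of all with T/S/Z. The window of 300 bases, 250 before and 50 after the start in the RefSeq annotation of GRCm38.p6, lies at chr3:50443564-50443863 on the minus strand. Capitals mark its 2 matches, on either strand, to TGATGNAA, the letters of the C/EBP-ATF response element, which lie 66 and 47 bases before the start.
Slc7a11: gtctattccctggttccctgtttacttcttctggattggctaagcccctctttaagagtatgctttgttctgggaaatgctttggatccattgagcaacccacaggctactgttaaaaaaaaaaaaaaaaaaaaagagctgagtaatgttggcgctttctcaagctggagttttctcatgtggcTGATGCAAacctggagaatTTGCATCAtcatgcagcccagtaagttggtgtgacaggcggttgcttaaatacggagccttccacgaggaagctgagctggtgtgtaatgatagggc
Of 32851 RefSeq promoters of this length 3.97% held these letters, and of the 205 windows of the 156 members with an entry 2.93% did. A match is a description of the sequence and was not tested for binding.

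Slc7a2, an importer of arginine and other cationic amino acids, rose in both cell types. It stood in microglia at 1.59, 1.63, 1.77 and 1.42 in DMSO, 5.16, 5.18, 4.68 and 5.07 with T/5z and 4.67, 4.80, 5.22 and 5.12 with T/S/Z. Every stimulated library was above every DMSO library, and the rise was 3.42 (SE 0.12, adjusted p = 1.42e-06) and 3.35 (SE 0.11, adjusted p = 2.62e-07). Nec-1s brought it to 3.73, 3.63, 3.27 and 3.45 and to 3.97, 3.96, 4.14 and 4.20, so that all treated libraries stayed between DMSO and the stimulus. The astrocyte levels were 4.14, 4.34 and 4.54 in DMSO and 6.61, 6.34 and 6.50 in T/S/Z, a rise of 2.14 (SE 0.11, adjusted p = 1.52e-05), and 6.25, 6.21 and 6.23 in T/S/Z/N, a further change of -0.25 (SE 0.09, adjusted p = 0.107) that did not pass. Slc7a1, another cationic amino acid carrier, rose by 1.07 in microglia and 0.65 in astrocytes with T/S/Z.

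Slc7a7, the light chain of a cationic and neutral amino acid exchanger, rose in microglia from 5.42, 5.34, 5.37 and 5.04 in DMSO to 7.95, 8.01, 8.04 and 8.10 with T/5z and 7.43, 7.58, 7.43 and 7.73 with T/S/Z. These were changes of 2.73 (SE 0.09, adjusted p = 8.97e-07) and 2.25 (SE 0.11, adjusted p = 1.57e-06), with no overlap between the groups. With Nec-1s it fell by 1.06 after T/5z and by 0.76 after T/S/Z, and the second call was lost after quantile normalization, at -0.50. In astrocytes the T/S/Z change of Slc7a7 was 0.12 (SE 0.11, adjusted p = 0.399). Slc16a10, a carrier of aromatic amino acids in the monocarboxylate family, also rose in microglia, with 5.01, 5.18, 5.43 and 5.27 in DMSO, 7.58, 7.46, 7.25 and 7.30 with T/5z and 7.07, 7.13, 7.04 and 7.09 with T/S/Z. Its rises were 2.18 (SE 0.11, adjusted p = 6.37e-06) and 1.86 (SE 0.07, adjusted p = 6.74e-07), and Nec-1s changed it by -0.78 and -0.74, the second being -0.50 after quantile normalization and then not called. This member did not pass the filter in astrocytes.

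Slc43a2, a carrier of large neutral amino acids, moved in opposite directions in the 2 cell types. Microglia had 6.96, 6.86, 6.91 and 7.05 in DMSO, 5.85, 6.07, 5.85 and 5.82 with T/S/Z and 6.99, 7.03, 6.99 and 6.98 with T/S/Z/N. The T/S/Z libraries were the lowest and those with Nec-1s returned to the DMSO range, with changes of -1.04 (SE 0.07, adjusted p = 1.08e-05) and 1.10 (SE 0.05, adjusted p = 4.48e-06). In astrocytes its level was 3.77, 3.63 and 3.58 in DMSO, 5.40, 5.08 and 5.08 in T/S/Z and 5.13, 5.11 and 4.97 in T/S/Z/N, a rise of 1.52 (SE 0.08, adjusted p = 1.58e-05) with a difference of -0.11, not called, when Nec-1s was added. The difference between the cell types was not tested, since the tables were normalized separately.

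Slc6a8, the creatine carrier, had 6.14, 6.24, 6.14 and 6.35 in DMSO and 5.02, 4.93, 5.01 and 4.93 with T/5z, a change of -1.24 (SE 0.06, adjusted p = 6.34e-06) between groups that did not overlap. With T/S/Z its change was -0.22 (SE 0.05, adjusted p = 0.0075) and did not reach the fold required, and T/S/Z against T/5z was 1.03 (SE 0.05, adjusted p = 1.63e-05). Slc36a1, which exports amino acids from lysosomes, fell by 1.33 with T/5z and by 1.01 with T/S/Z. Slc38a1, a glutamine carrier, changed by -0.89 (SE 0.06, adjusted p = 2.14e-05) with T/5z in microglia and by -0.75 (SE 0.07, adjusted p = 0.000292) with T/S/Z in astrocytes. Other astrocyte carriers of this kind that fell with T/S/Z included Slc6a15, a neutral amino acid carrier, by 0.62 and Slc38a3 by 0.59. These last calls were close to the fold required. Without replicate 3 Slc38a3 was at -0.51, and after median centring both were under it, at -0.57 (Slc6a15) and -0.54 (Slc38a3).

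The glutamate carriers were not called in astrocytes. Slc1a3 stood at 7.85, 7.81 and 8.01 with T/S/Z, a change of -0.06 (SE 0.07, adjusted p = 0.551), and Slc1a2 at 4.24, 4.05 and 4.33, a change of -0.22 (SE 0.10, adjusted p = 0.125). In the microglial table Slc1a3 was low in DMSO, at 0.81, 0.74, 0.95 and 0.81, and higher with T/5z, at 1.79, 2.07, 1.87 and 1.47, and T/S/Z, at 1.63, 1.40, 1.73 and 1.96. With Nec-1s it was 1.20, 1.04, 0.98 and 1.09 and 0.72, 0.91, 0.70 and 0.79. Every DMSO and T/S/Z/N library was thus under the filter level of 1. Slc1a3 passed the filter through stimulated libraries, in which it was higher, and its tests rest on that selection. The changes were 0.97 (SE 0.12, adjusted p = 0.00036), 0.86 (SE 0.10, adjusted p = 0.000172), -0.72 (SE 0.11, adjusted p = 0.00127) and -0.90 (SE 0.12, adjusted p = 0.000467). The summed level of the 7 astrocyte markers in this table moved the same way, from 2.85 to 3.17 in DMSO to 3.46 to 4.26 with T/5z and 3.66 to 4.12 with T/S/Z, and back to 2.98 to 3.06 and 2.37 to 2.64 with Nec-1s. That of the 5 fibroblast and mural markers was 2.59 to 2.93 in DMSO, 3.43 to 4.13 with T/5z and 2.23 to 2.87 with T/S/Z. The part of other cells in the Slc1a3 values was not tested. Its Nec-1s call after T/5z was lost with ordinary per-gene variance (limma without moderation, adjusted p = 0.0516), and with 5 added before the log all 4 changes were under the fold required, at 0.38, 0.32, -0.30 and -0.34. The families grouped by number as amino acid carriers held 33 members, the creatine and nucleobase carriers Slc6a8 and Slc43a3 included. Of these, 23 were tested in microglia. With T/5z 5 rose, Slc1a3 among them, and 6 fell (median 0.10), and with T/S/Z 9 rose, again with Slc1a3, and 5 fell (median 0.29). These are 21.7% and 26.1%, then 39.1% and 21.7%, against 11.1% and 13.3%, then 12.2% and 17.5%, of all tested genes. In astrocytes 4 of 32 rose and 4 fell (median -0.06), 12.5% each against 6.39% and 8.99%.

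Among the sugar carriers, Slc2a1, the glucose carrier GLUT1, rose most with T/S/Z. Microglia had 4.44, 4.44, 4.58 and 4.33 in DMSO, 6.39, 6.34, 6.18 and 6.37 with T/5z and 7.51, 7.56, 7.65 and 7.84 with T/S/Z. None of these groups overlapped, and T/S/Z libraries were above T/5z libraries by 1.32 (SE 0.07, adjusted p = 2.3e-05). Against DMSO the rises were 1.87 (SE 0.08, adjusted p = 2.31e-06) and 3.20 (SE 0.08, adjusted p = 1.13e-07). Nec-1s lowered the level to 5.09, 5.03, 4.87 and 5.08 after T/5z and 6.20, 6.17, 6.16 and 6.20 after T/S/Z, that is by 1.30 (SE 0.04, adjusted p = 4.1e-07) and 1.46 (SE 0.06, adjusted p = 3.38e-06). Astrocytes held it at 4.71, 4.70 and 4.64 in DMSO and 4.85, 4.84 and 4.73 in T/S/Z, a change of 0.12 (SE 0.07, adjusted p = 0.222), and the libraries with Nec-1s were the lowest there, at 4.25, 4.33 and 4.39, -0.48 (SE 0.09, adjusted p = 0.0261) from T/S/Z and not called.

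The Slc2a1 promoter is shown as that of the sugar carrier whose rise Nec-1s reduced after both stimuli. The window lies at chr4:119108495-119108794 on the plus strand. Capitals mark its 1 match to ACGTG, the core letters of the hypoxia response element, which begins 36 bases before the start.
Slc2a1: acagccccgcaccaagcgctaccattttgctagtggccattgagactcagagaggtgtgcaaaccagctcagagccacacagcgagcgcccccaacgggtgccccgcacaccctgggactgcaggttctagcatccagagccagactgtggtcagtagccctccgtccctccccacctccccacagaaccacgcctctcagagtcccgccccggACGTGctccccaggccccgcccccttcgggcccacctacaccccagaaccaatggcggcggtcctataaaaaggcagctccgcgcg
These 5 letters occurred, on either strand, in 19.6% of all promoters and in 28.3% of the members' windows.

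Slc2a6, a hexose carrier of lysosomes, had the largest rise of all members with T/5z. Its level was 3.31, 3.25, 3.91 and 3.61 in DMSO, 7.48, 7.48, 7.28 and 7.42 with T/5z and 5.85, 5.96, 5.60 and 5.86 with T/S/Z. The T/5z libraries stood above those of T/S/Z, and both above DMSO. These were rises of 3.90 (SE 0.14, adjusted p = 1.34e-06) and 2.30 (SE 0.15, adjusted p = 7.28e-06). Nec-1s lowered it after T/5z, to 6.64, 6.62, 6.31 and 6.51, by 0.90 (SE 0.04, adjusted p = 2.59e-06). After T/S/Z the libraries with Nec-1s, at 5.92, 5.88, 5.51 and 5.64, overlapped those without it, and the change was -0.08 (SE 0.05, adjusted p = 0.228). The effect of Nec-1s differed between the stimuli by -0.82 (SE 0.06, adjusted p = 1.09e-06). In astrocytes it rose from 1.59, 1.36 and 1.14 to 3.81, 3.52 and 3.10, by 2.11 (SE 0.10, adjusted p = 1.22e-05).

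Slc37a2, the glucose-6-phosphate carrier, moved down. It was at 7.72, 7.72, 7.72 and 7.86 in DMSO, 6.34, 6.35, 6.50 and 6.49 with T/5z and 6.75, 6.83, 6.75 and 6.79 with T/S/Z. The drop was 1.34 (adjusted p = 1.3e-06) and 0.97 (adjusted p = 1.9e-06), and Nec-1s raised it by 0.59 (SE 0.05, adjusted p = 3.55e-05) after T/5z. Slc37a2 also fell in astrocytes, at 1.90, 1.70 and 1.55 in DMSO and 1.09, 0.85 and 0.98 in T/S/Z, a change of -0.74 (SE 0.11, adjusted p = 0.0023) whose adjusted p was 0.0512 without replicate 1. Slc45a4, of a sugar carrier family, changed by -0.91 with T/5z and by -1.20 with T/S/Z. Slc2a8, an intracellular hexose carrier, changed by -0.97 and -1.16, and Slc37a4, which brings glucose-6-phosphate into the endoplasmic reticulum, by -0.74 and -1.03. The families grouped by number as sugar carriers, Slc2a9 and Slc5a6 included whatever they move, had 12 members tested in microglia. Of these, 2 rose and 5 fell with T/5z (median -0.37), and 2 rose and 6 fell with T/S/Z (median -0.51). The upward share, 16.7% with each, was near the 11.1% and 12.2% of all tested genes, and the downward shares were 41.7% and 50%, against 13.3% and 17.5%. The median over all tested genes was -0.06 and -0.08.

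Slc16a3, the lactate exporter, rose more with T/S/Z than with T/5z. It was at 4.74, 4.85, 4.81 and 4.80 in DMSO, 5.79, 5.67, 5.77 and 5.86 with T/5z and 6.62, 6.66, 7.01 and 7.13 with T/S/Z. The T/S/Z libraries were the highest, and these 3 groups did not overlap. Against DMSO the rises were 0.97 (SE 0.06, adjusted p = 1.09e-05) and 2.05 (SE 0.09, adjusted p = 1.21e-06), and T/S/Z exceeded T/5z by 1.09 (SE 0.08, adjusted p = 8.53e-05). Nec-1s brought it to 5.24, 5.23, 4.95 and 4.92 and 5.92, 5.81, 5.70 and 5.72, a fall of 0.68 (adjusted p = 0.00027) and of 1.07 (adjusted p = 0.000212). Slc16a1, a lactate carrier of lower level in microglia, was at 1.88, 1.89, 1.87 and 1.81 in DMSO, 2.22, 2.06, 2.25 and 2.68 with T/S/Z and 1.33, 1.23, 1.41 and 1.30 with T/S/Z/N. Its T/S/Z change of 0.44 (SE 0.12, adjusted p = 0.0101) was under the fold required, though it was called after quantile normalization at 0.67, and the libraries with Nec-1s were below DMSO as well, -0.99 (SE 0.10, adjusted p = 0.000182) from T/S/Z. After T/5z the effect of Nec-1s was -0.18 (SE 0.12, adjusted p = 0.231), and the difference between stimuli was 0.81 (SE 0.19, adjusted p = 0.00791).

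The Slc16a3 promoter is shown beside that of Slc2a1 because it holds 2 matches to the same letters, ACGTG, in capitals, which begin 27 and 14 bases before the start. It lies at chr11:120948817-120949116 on the plus strand.
Slc16a3: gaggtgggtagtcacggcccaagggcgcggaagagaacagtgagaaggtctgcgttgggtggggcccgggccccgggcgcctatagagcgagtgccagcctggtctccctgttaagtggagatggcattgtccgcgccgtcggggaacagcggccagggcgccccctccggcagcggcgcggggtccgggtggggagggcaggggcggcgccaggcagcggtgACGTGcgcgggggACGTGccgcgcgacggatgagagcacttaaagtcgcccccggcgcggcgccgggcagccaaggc
These letters were also in windows of members that the stimuli lowered, among them Slc36a1 and Slc12a9, where some matches on the 2 strands overlapped. No value in these data measures what binds there.

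Slc16a6, a carrier of ketone bodies, fell with T/S/Z and rose when Nec-1s was added to T/5z. It was at 2.77, 2.52, 2.56 and 2.80 in DMSO, 2.34, 2.61, 2.67 and 2.45 with T/5z, 3.51, 3.84, 3.75 and 3.28 with T/5z/N and 1.35, 1.26, 1.29 and 1.37 with T/S/Z. T/5z libraries overlapped DMSO, those with Nec-1s were above both, and those with T/S/Z were below all. T/S/Z lowered it by 1.34 (SE 0.08, adjusted p = 3.47e-06). With Nec-1s the change was 1.07 (SE 0.07, adjusted p = 1.73e-05) after T/5z and 0.01 (SE 0.08, adjusted p = 0.937) after T/S/Z, and these differed by 1.07 (SE 0.13, adjusted p = 5.7e-05). In astrocytes Slc16a9, a monocarboxylate family member, rose from 3.53, 3.51 and 3.74 to 5.19, 5.29 and 5.24 with T/S/Z, by 1.64 (SE 0.08, adjusted p = 1.54e-05). It did not pass the filter in microglia. The monocarboxylate and dicarboxylate families had 7 members tested in microglia, the aromatic amino acid carrier Slc16a10 included. Of these, 2 rose and 1 fell with T/5z and 2 rose and 2 fell with T/S/Z. These are 28.6% and 14.3%, then 28.6% and 28.6%, of 7 members, against 11.1% and 13.3%, then 12.2% and 17.5%, of all tested genes.

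Metal carriers were called upward more often than downward. Of 25 tested in microglia, 9 rose and 3 fell with T/5z (median 0.21) and 11 rose and 2 fell with T/S/Z (median 0.39, against -0.08 over all tested genes), and in astrocytes 5 of 26 rose and 1 fell with T/S/Z (median 0.12, against -0.11). The upward shares were 36%, 44% and 19.2%, against 11.1%, 12.2% and 6.39% of all tested genes. Slc39a14, which imports zinc and iron, was at 2.73, 2.88, 2.77 and 2.36 in DMSO, 5.22, 5.19, 5.03 and 5.23 with T/5z and 5.55, 5.67, 5.80 and 5.93 with T/S/Z. It rose by 2.48 (SE 0.10, adjusted p = 2.58e-06) and 3.05 (SE 0.13, adjusted p = 7.57e-07), without overlap. Nec-1s lowered it to 3.62, 3.43, 3.38 and 3.61 after T/5z and 4.54, 4.56, 4.76 and 4.91 after T/S/Z. The changes, -1.66 and -1.05, differed between the stimuli by -0.61 (SE 0.11, adjusted p = 0.00104). Astrocytes raised it from 4.49, 4.43 and 4.53 to 5.81, 5.69 and 5.72, by 1.26 (SE 0.07, adjusted p = 2.58e-05), and the 3 libraries with Nec-1s, at 5.57, 5.53 and 5.56, were slightly lower, a change of -0.18 (SE 0.08, adjusted p = 0.17) that did not pass.

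Slc40a1 is ferroportin, the iron exporter, and it moved the other way. Its microglial level was 6.35, 6.17, 6.65 and 6.63 in DMSO, 4.68, 4.72, 4.81 and 4.55 with T/5z and 4.64, 4.83, 4.37 and 4.46 with T/S/Z. Nec-1s gave 5.52, 5.54, 5.50 and 5.31 and 5.71, 5.74, 5.46 and 5.59, so that every library with Nec-1s stood between the stimulus and DMSO. The falls were 1.76 (SE 0.10, adjusted p = 8.03e-06) and 1.88 (SE 0.14, adjusted p = 1.68e-05), and Nec-1s raised it by 0.78 (SE 0.04, adjusted p = 6.37e-06) and 1.05 (SE 0.05, adjusted p = 5.72e-06). In the astrocyte table Slc40a1 fell from 2.06, 1.88 and 2.14 to 0.96, 0.92 and 0.93, by 1.09 (adjusted p = 0.000355), a call lost with 5 added before the log (-0.45) and with ordinary per-gene variance (limma, adjusted p = 0.0621). There the summed level of the 8 microglial markers was lower too, at 6.22 to 6.33 in DMSO and 5.54 to 5.64 in T/S/Z, and was 6.08 to 6.16 in T/S/Z/N. The fibroblast and mural sum was 9.01 to 9.04 in DMSO and 6.59 to 6.73 in T/S/Z, and the endothelial one 3.87 to 3.97 and 2.76 to 2.89, with no test. The endothelial sum held only Cdh5 and Flt1, which moved apart. Their mean levels in DMSO and T/S/Z were 3.73 and 1.99 for Cdh5 and 1.42 and 2.03 for Flt1. The part of any of these cells in the astrocyte values of Slc40a1 and Slc37a2 was not tested.

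Slc11a2, the iron importer DMT1, rose with T/S/Z in both cell types. It was at 4.74, 4.80, 4.91 and 4.89 in DMSO and 5.70, 5.59, 5.52 and 5.81 with T/S/Z in microglia, a rise of 0.82 (SE 0.07, adjusted p = 2.86e-05) without overlap. In astrocytes it was at 3.97, 3.65 and 3.66 and 4.84, 4.74 and 4.44, a rise of 0.91 (SE 0.09, adjusted p = 0.000342). In microglia its level with Nec-1s minus that without was 0.50 for T/5z but -0.43 for T/S/Z, neither called, and the interaction was 0.93 (SE 0.09, adjusted p = 8.2e-06). Slc11a1 rose by 0.71 (SE 0.08, adjusted p = 0.000105) in microglia, where it was 0.22 after quantile normalization. In astrocytes, where it was low, it went from 1.23, 1.22 and 1.09 to 1.72, 1.85 and 1.83, by 0.62 (SE 0.11, adjusted p = 0.00427), and by 0.56 without replicate 3. This rise stood beside the lower sums of microglial and other markers given above.

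Slc31a1, the copper importer of the cell surface, rose in microglia without a call for Nec-1s. It was at 5.33, 5.31, 5.36 and 5.18 in DMSO, 7.21, 7.16, 7.30 and 7.36 with T/5z and 6.60, 6.78, 6.74 and 6.75 with T/S/Z, a rise of 1.96 (SE 0.06, adjusted p = 9.47e-07) and 1.42 (SE 0.06, adjusted p = 9.41e-07). Slc31a2, its relative, was at 4.75, 4.85, 4.89 and 4.70 in DMSO and 6.62, 6.61, 6.70 and 6.81 with T/5z, a rise of 1.89 (SE 0.07, adjusted p = 1.28e-06), and rose by 1.52 (SE 0.07, adjusted p = 1.01e-06) with T/S/Z. The differences made by Nec-1s after T/5z and T/S/Z were 0.09 and 0.09 for Slc31a2 and -0.52 and -0.19 for Slc31a1, none of them called. Zinc carriers that rose with both microglial stimuli included Slc39a13, by 1.38 and 1.00, Slc39a1, by 0.87 and 0.76, Slc30a1, the zinc exporter of the surface, by 0.88 and 0.69, and Slc30a6, by 0.96 and 0.91. Slc30a4, a zinc carrier of vesicles, rose by 0.76 and 0.95 in microglia, and in astrocytes from 4.06, 4.04 and 4.28 to 5.18, 5.28 and 5.50, by 1.20 (SE 0.07, adjusted p = 3.56e-05).

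**Figure D2:**
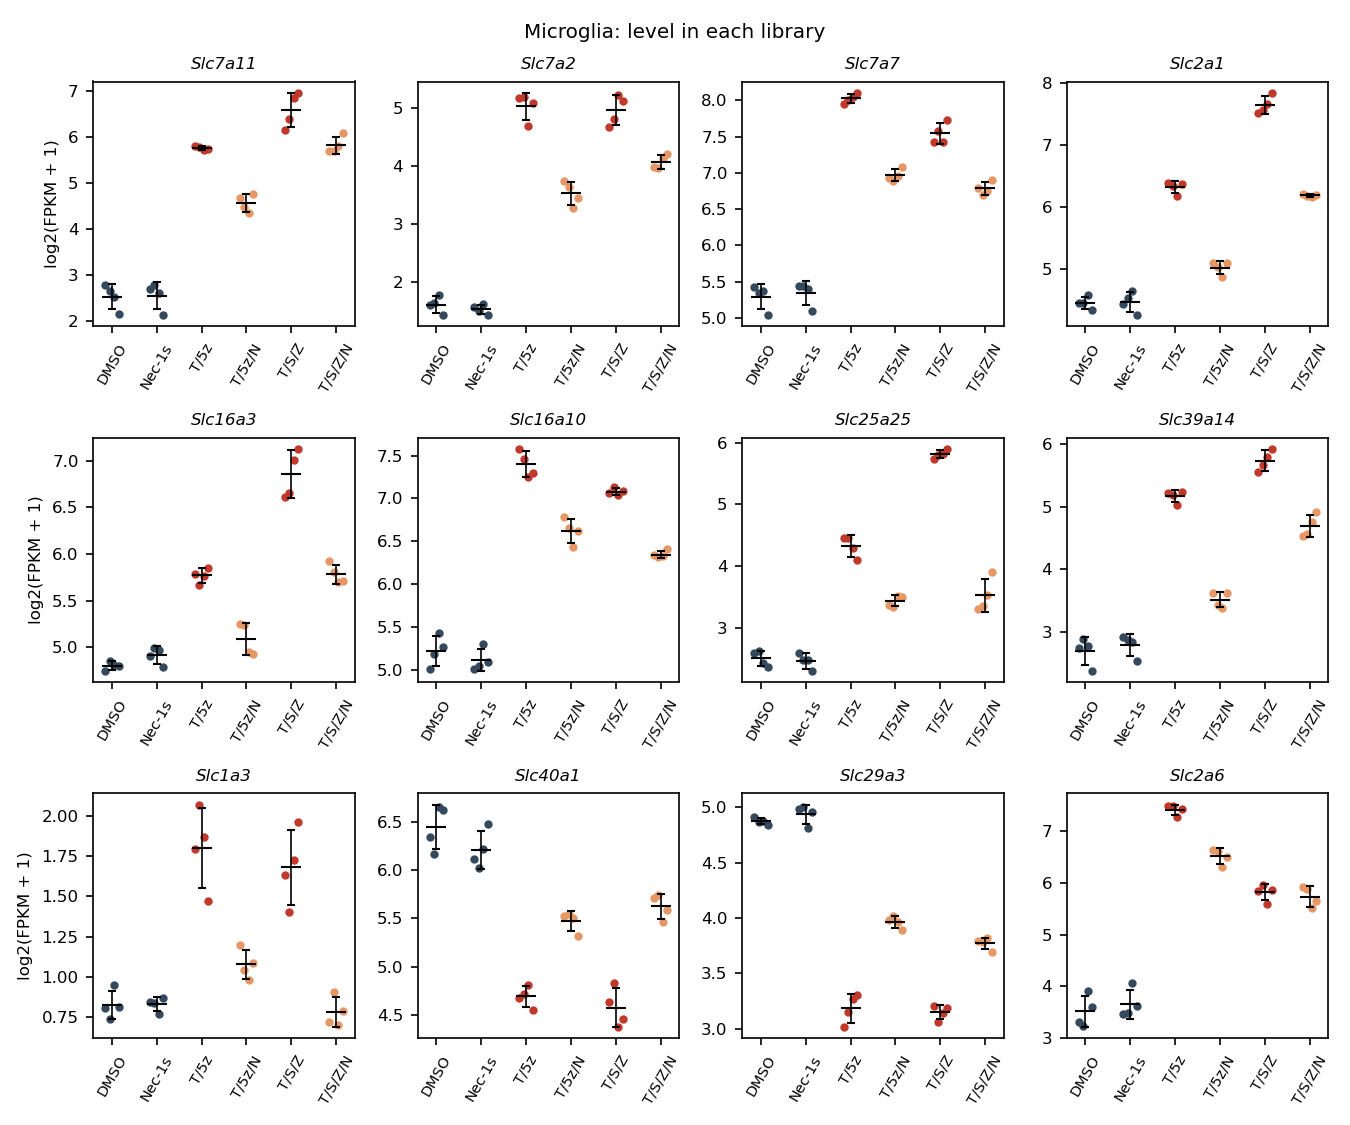
Level of 12 members, log2(FPKM + 1), in each of the 24 microglial libraries by treatment, with a bar at the mean and whiskers of 1 SD (n = 4). Slc7a11 lies between 5.70 and 6.95 in the T/5z and T/S/Z libraries and at 2.77 or below in DMSO, Slc40a1 and Slc29a3 show the opposite order, and the libraries with Nec-1s lie between for most of the members drawn.

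Mitochondrial carriers, the largest family, had calls in both directions in microglia, in shares near those of all genes. Of 34 tested in microglia, 5 rose and 5 fell with T/5z (median -0.12) and 4 rose and 7 fell with T/S/Z (median -0.16), and in astrocytes 3 of 40 rose and 1 fell. The shares were 14.7% and 14.7% with T/5z (11.1% and 13.3% of all tested genes), 11.8% and 20.6% with T/S/Z (12.2% and 17.5%) and 7.5% and 2.5% in astrocytes (6.39% and 8.99%). Slc25a25, the calcium-regulated ATP-Mg/phosphate carrier, was at 2.59, 2.62, 2.43 and 2.37 in DMSO, 4.46, 4.46, 4.29 and 4.09 with T/5z and 5.74, 5.81, 5.82 and 5.91 with T/S/Z. The T/S/Z libraries were highest, and the rises were 1.82 (SE 0.05, adjusted p = 7.44e-07) and 3.32 (SE 0.08, adjusted p = 8.65e-08). With Nec-1s the levels were 3.37, 3.34, 3.52 and 3.50 and 3.30, 3.36, 3.54 and 3.90. The fall after T/S/Z, 2.29 (SE 0.08, adjusted p = 1.5e-06), was the largest that Nec-1s made among the members and exceeded the 0.89 after T/5z by 1.40 (SE 0.16, adjusted p = 2.74e-05). Astrocytes raised it from 3.93, 3.92 and 3.78 to 5.52, 5.34 and 5.25, by 1.49 (SE 0.08, adjusted p = 1.53e-05), and with Nec-1s it was 4.95, 4.95 and 5.17, a change of -0.35 (SE 0.11, adjusted p = 0.0909) that was not called.

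The promoter of Slc25a25 is shown because this member fell most with Nec-1s. RefSeq gives 3 windows for it, and that at chr2:32451421-32451720 on the minus strand holds 2 matches to TGACNNNGC, the letters of the antioxidant response element, in capitals, which begin 100 and 31 bases before the start.
Slc25a25: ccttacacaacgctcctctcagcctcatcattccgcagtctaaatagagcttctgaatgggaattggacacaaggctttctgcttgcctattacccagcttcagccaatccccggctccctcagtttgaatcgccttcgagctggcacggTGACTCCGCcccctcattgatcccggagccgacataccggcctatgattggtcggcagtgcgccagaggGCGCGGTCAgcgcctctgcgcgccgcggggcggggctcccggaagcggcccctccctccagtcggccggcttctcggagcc
These letters, which also contain ACGTG where the 3 free positions read GTG, were in 12.4% of all promoters and in 20% of the members' windows. They were in 1 of 13 windows (7.69%) of the members that both microglial stimuli raised and Nec-1s lowered after each. The kappaB consensus was in 8.46% of all promoters and 10.2% of the members' windows. Slc7a2, Slc39a14 and Slc40a1 had no entry in the promoter table.

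Slc25a10, the mitochondrial dicarboxylate carrier, rose and was not called for Nec-1s. It was at 5.13, 5.01, 5.10 and 5.07 in DMSO, 6.56, 6.66, 6.71 and 6.67 with T/5z and 6.63, 6.65, 6.70 and 6.67 with T/5z/N. The last groups overlapped, and the changes were 1.57 (SE 0.05, adjusted p = 9.61e-07) with T/5z and 0.01 (SE 0.04, adjusted p = 0.811) with Nec-1s. With T/S/Z the rise was 0.93 (SE 0.07, adjusted p = 1.14e-05), lower than with T/5z by 0.64, or 0.56 without replicate 3. Slc25a37, mitoferrin, which brings iron into mitochondria, rose by 0.94 with T/5z and by 1.43 with T/S/Z in microglia and by 1.06 in astrocytes. Slc25a33, a pyrimidine nucleotide carrier, rose by 0.62 and 1.39. Slc25a30 and Slc25a45 fell, by 1.20 and 1.05 with T/5z. Slc25a35 fell with T/S/Z by 0.84 in microglia and by 0.72 in astrocytes, the latter under the fold required after quantile normalization (-0.56). The abundant Slc25a3 and Slc25a5, not called with T/S/Z, differed from DMSO in microglia by 0.24 and 0.17, and Slc25a4 had a difference of -0.01. The sign of Slc25a3 turned under quantile normalization, to -0.27.

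Slc29a3, which moves nucleosides out of lysosomes, was one of the members that both stimuli lowered and Nec-1s raised. It was at 4.91, 4.87, 4.88 and 4.84 in DMSO, 3.01, 3.14, 3.27 and 3.31 with T/5z and 3.20, 3.06, 3.14 and 3.19 with T/S/Z. With Nec-1s it was 3.98, 4.02, 3.96 and 3.89 and 3.79, 3.78, 3.81 and 3.69. No stimulus library overlapped DMSO or its group with Nec-1s, with falls of 1.69 (adjusted p = 2.51e-06) and 1.73 (adjusted p = 3.2e-07) and rises with Nec-1s of 0.78 (SE 0.07, adjusted p = 6.75e-05) and 0.62 (SE 0.06, adjusted p = 8.34e-05). The second of these was 0.55 after median centring and 0.53 after quantile normalization, under the fold required. Slc46a3, a lysosomal carrier, had the largest fall of any member with T/S/Z. Its level was 2.96, 2.96, 3.00 and 3.39 in DMSO, 1.02, 0.98, 1.20 and 1.07 with T/5z and 0.95, 0.88, 0.84 and 0.44 with T/S/Z, and the changes were -2.01 (SE 0.10, adjusted p = 4.5e-06) and -2.30 (SE 0.15, adjusted p = 8.4e-06). Slc46a1, the folate carrier, fell by 1.38 and 1.17, and Slc17a5, which exports sialic acid from lysosomes, by 1.22 and 1.26.

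Slc23a2, the ascorbate carrier, was called with T/S/Z and not with T/5z. It was at 4.77, 4.86, 4.85 and 4.65 in DMSO, 5.73, 5.73, 5.68 and 5.77 with T/S/Z and 4.57, 4.47, 4.64 and 4.71 with T/S/Z/N. The rise of 0.94 (SE 0.06, adjusted p = 7.83e-06) was followed by a change of -1.13 (SE 0.05, adjusted p = 4.63e-06) with Nec-1s, to below the DMSO mean. With T/5z the change was 0.27 (SE 0.06, adjusted p = 0.0079), and T/S/Z exceeded T/5z by 0.68 (SE 0.05, adjusted p = 5.59e-05). Slc19a2, a thiamine carrier, was lower with T/S/Z, by 0.63 against DMSO and by 0.71 against T/5z, and Nec-1s raised it by 0.60 (SE 0.10, adjusted p = 0.00158). Of 7 vitamin and haem carriers tested, 1 rose and 3 fell with T/5z and 2 rose and 4 fell with T/S/Z (median -0.63, against -0.08 over all tested genes). The shares, 14.3% and 42.9%, then 28.6% and 57.1%, stand against 11.1% and 13.3%, then 12.2% and 17.5%, of all tested genes.

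Slc20a1, a phosphate importer, was at 3.68, 3.62, 3.24 and 2.73 in DMSO, 3.52, 3.72, 3.59 and 3.49 with T/5z and 4.48, 4.43, 5.22 and 5.53 with T/S/Z. Its DMSO libraries spread widely, T/5z overlapped them and T/S/Z was above both, by 1.60 (SE 0.31, adjusted p = 0.00218) from DMSO. Nec-1s lowered it after T/S/Z, to 3.41, 3.39, 3.72 and 4.24, by 1.23 (SE 0.08, adjusted p = 1.94e-05). In astrocytes, where it was well expressed, the T/S/Z libraries were the lowest, at 5.50, 5.31 and 5.49 against 5.80, 6.11 and 5.83 in DMSO, a change of -0.48 (SE 0.11, adjusted p = 0.0119) under the fold required. Slc26a11, a sulfate and anion carrier, had the largest fall with T/5z. It was at 3.82, 3.92, 3.67 and 3.96 in DMSO, 1.26, 1.37, 1.54 and 1.56 with T/5z, 2.23, 2.18, 2.18 and 1.97 with T/5z/N and 2.07, 1.81, 2.18 and 2.06 with T/S/Z. The falls were 2.41 (adjusted p = 1.38e-06) and 1.81 (adjusted p = 3.47e-06). Nec-1s raised it after T/5z by 0.71 (SE 0.10, adjusted p = 0.00066), its change after T/S/Z, -0.11 (SE 0.08, adjusted p = 0.295), was not called, and the difference between the stimuli was 0.82 (SE 0.13, adjusted p = 0.000391).

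Among ion carriers, Slc4a7, a sodium bicarbonate carrier, rose in microglia, by 1.26 (SE 0.10, adjusted p = 4.43e-05) after T/5z and 1.85 (SE 0.09, adjusted p = 1.99e-06) after T/S/Z, and by 1.06 (SE 0.10, adjusted p = 0.000248) with T/S/Z in astrocytes. Slc12a9, of the cation-chloride family, fell by 0.99 and 1.45 in microglia and was raised by 0.82 (SE 0.06, adjusted p = 3.14e-05) with Nec-1s after T/S/Z. Slc12a2, the sodium-potassium-chloride carrier NKCC1, was not called with T/S/Z, at -0.03 (SE 0.08, adjusted p = 0.756) in microglia and -0.05 (SE 0.08, adjusted p = 0.636) in astrocytes, and its sign turned after median centring in both. Slc4a4 differed by -0.36 (SE 0.10, adjusted p = 0.0225) in astrocytes, under the fold required. Of 18 ion carriers tested in microglia, 2 rose and 4 fell with either stimulus. These are 11.1% and 22.2% of 18 members, against 11.1% and 13.3% of all tested genes with T/5z and 12.2% and 17.5% with T/S/Z.

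Among the 19 nucleotide sugar carriers tested in microglia, which supply the Golgi with sugars for glycans, none rose, 3 fell with T/5z and 4 fell with T/S/Z (median -0.23 with each), and none of 22 was called in astrocytes. The lower shares, 15.8% and 21.1%, were near the 13.3% and 17.5% of all tested genes. By limma, 15 of the 19 had an unadjusted p under 0.05 with T/5z and 14 of them with T/S/Z, and 7 of the 22 in astrocytes, where of all tested genes 7140 and 7742 of 10524 and 6886 of 13842 did. Slc35c1, the GDP-fucose carrier, had a T/S/Z difference of -0.53 (SE 0.06, adjusted p = 0.000154), under the fold required, and was raised by 0.67 (SE 0.05, adjusted p = 4.73e-05) with Nec-1s. Slc10a7, in the bile salt family, fell by 1.02 with T/S/Z and was raised by 0.68 (SE 0.07, adjusted p = 0.000175) with Nec-1s, 0.53 after quantile normalization. Slc44a1, a choline carrier, rose by 1.64 with T/5z and by 1.34 with T/S/Z. Slc15a3, at 8.82, 8.86, 8.94 and 8.97 with T/S/Z in microglia, rose by 0.89 (SE 0.05, adjusted p = 4.38e-06), or by 0.42 after quantile normalization, and its T/5z change was 0.22 (SE 0.07, adjusted p = 0.024). In astrocytes its difference was 0.52 (SE 0.12, adjusted p = 0.0157), not called, but it was called without replicate 3 (0.66) and after quantile normalization (0.67). Slc43a3, a purine nucleobase carrier, rose in microglia by 0.81 and 0.96 from a low level, 0.80, 0.97, 0.96 and 1.11 in DMSO, and in astrocytes from 3.34, 3.41 and 3.48 to 5.11, 4.98 and 4.85, by 1.57 (SE 0.10, adjusted p = 3.56e-05). Slc18b1, a vesicular polyamine carrier, changed by -0.65 (SE 0.11, adjusted p = 0.00375) in astrocytes, and by -0.53 without replicate 2.

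**Figure D3:**
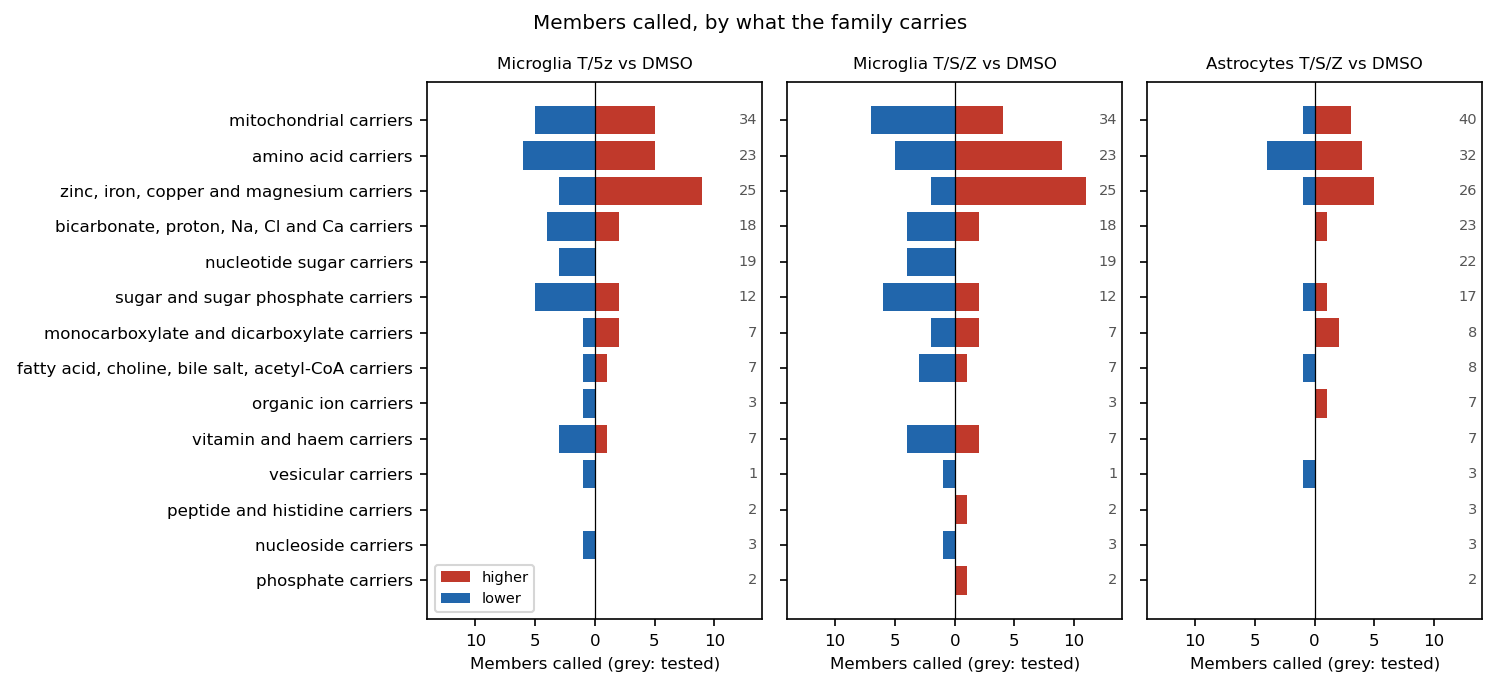
Number of members called higher (right) and lower (left) in 3 comparisons, grouped by what the family carries, with the number tested in grey. Metal carriers have 9 higher and 3 lower calls with T/5z and 11 and 2 with T/S/Z in microglia.

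A member was counted as RIPK1-kinase-dependent when a stimulus moved it and Nec-1s moved it back, each past the threshold. Both comparisons use the same stimulus libraries, so the opposite signs are not independent. With T/5z 12 raised and 8 lowered members were so counted, against 3.76% and 2.32% of all tested genes, that is 396 and 244 of 10524. T/S/Z likewise gave 12 and 8, against 4.95% and 4.33%. The lowered class depended on the settings. With T/5z it held 7 members after quantile normalization, 5 after median centring and 1 with 5 added before the log, and with T/S/Z 3, 4 and 3, while the raised class held 10 to 12 under each. In astrocytes there were 0 of 202, by limma, against 1.42% and 1.12% of all tested genes, with the 71 members at an unadjusted p under 0.05 in the Nec-1s comparison given above. The members raised with both microglial stimuli and lowered by Nec-1s after each were 9: Slc1a3, Slc2a1, Slc7a2, Slc7a7, Slc7a11, Slc16a3, Slc16a10, Slc25a25 and Slc39a14. Those lowered by both and raised by Nec-1s were Slc29a3 and Slc40a1. Over all tested genes these classes held 1.98% and 0.998%. Of the raised members, Slc1a3 had passed the filter through its stimulated libraries and lost its calls with 5 added before the log.

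Another 9 members were RIPK1-kinase-dependent with T/5z alone and 9 with T/S/Z alone, where all 10524 tested genes gave 325 (3.09%) and 662 (6.29%), and the effect of Nec-1s itself differed by the interaction test for 3 and 1 of these. Across all members that test called 9 positive and 3 negative, against 3.77% and 2.7% of all tested genes. A positive value means that the signed Nec-1s change was higher after T/5z, as with a larger rise or a smaller fall. The members with a stronger fall after T/5z were Slc2a6, Slc7a2 and Slc39a14. For Slc7a2 the interaction was -0.62 (SE 0.20, adjusted p = 0.0338), and it was not called without replicate 1, 2 or 4, at -0.58, -0.59 and -0.59.

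The change with Nec-1s can be given as a share of the stimulus change it follows, with a positive share meaning the opposite sign. The median share was 39.5% for the 61 members called with T/5z, 33.7% for the 74 called with T/S/Z and 31.1% for the 26 in astrocytes, and over all genes so called it was 40.4%, 47.3% and 33.1%. The sign was opposite for 57, 66 and 23 members, against 94.8%, 90.6% and 91.1% of all genes called. These shares carry no test, since the stimulus libraries enter both differences and the members were picked by the first of them, and most of the Nec-1s changes were not called. With T/S/Z the shares ran from -24.7% for Slc48a1, which moved further from DMSO, to 119.7% for Slc23a2, and Slc1a3 (105.6%) and Slc43a2 (105.2%) also exceeded 100%.

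Setting the cell types side by side, 162 members were tested with T/S/Z in both, and 73 were called in microglia and 19 in astrocytes. Of these 14 were called in the same direction in both, which is 19.2% of the microglial and 73.7% of the astrocyte calls. Over the 9912 genes tested in both and matched by symbol, 577 were, 20.3% of the microglial and 47.6% of the astrocyte calls. The 11 higher in both were Slc2a6, Slc4a7, Slc7a1, Slc7a2, Slc11a1, Slc11a2, Slc25a25, Slc25a37, Slc30a4, Slc39a14 and Slc43a3. Slc25a35, Slc37a2 and Slc40a1 were lower in both, and Slc43a2 was called in opposite directions, as were 75 of the 9912 genes. Slc7a11, which had the largest microglial rise with T/S/Z, and Slc2a1 were not called in astrocytes.

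**Figure D4:**
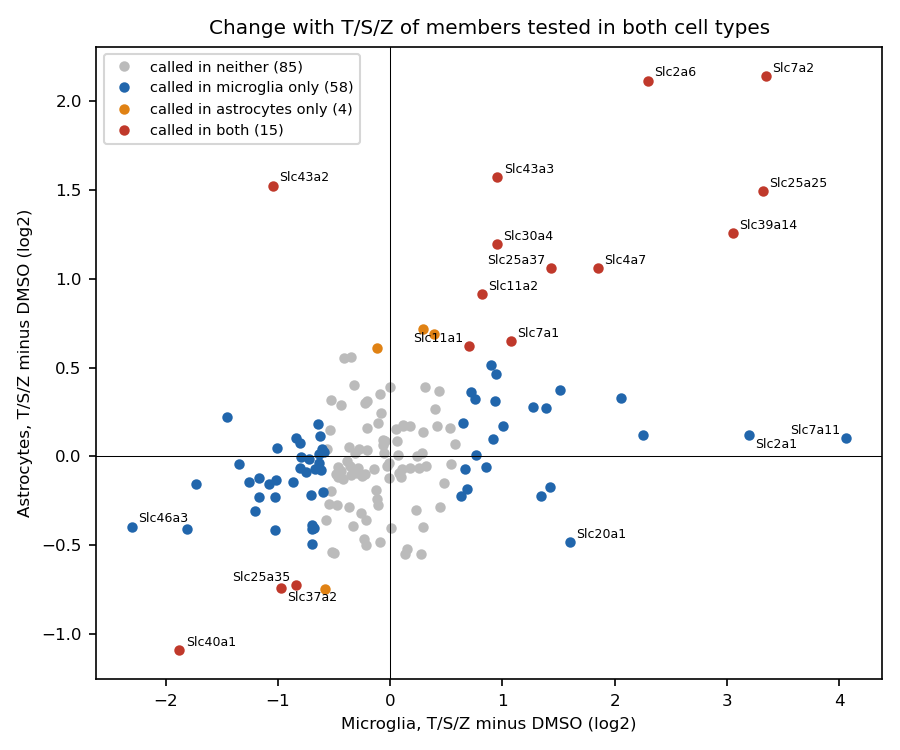
Change with T/S/Z against DMSO (log2) of the 162 members tested in both cell types, microglia on the horizontal and astrocytes on the vertical axis, coloured by where they were called. Of the 15 called in both, 14 lie in the upper right or lower left part and Slc43a2 lies in the upper left.

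**Figure D5:**
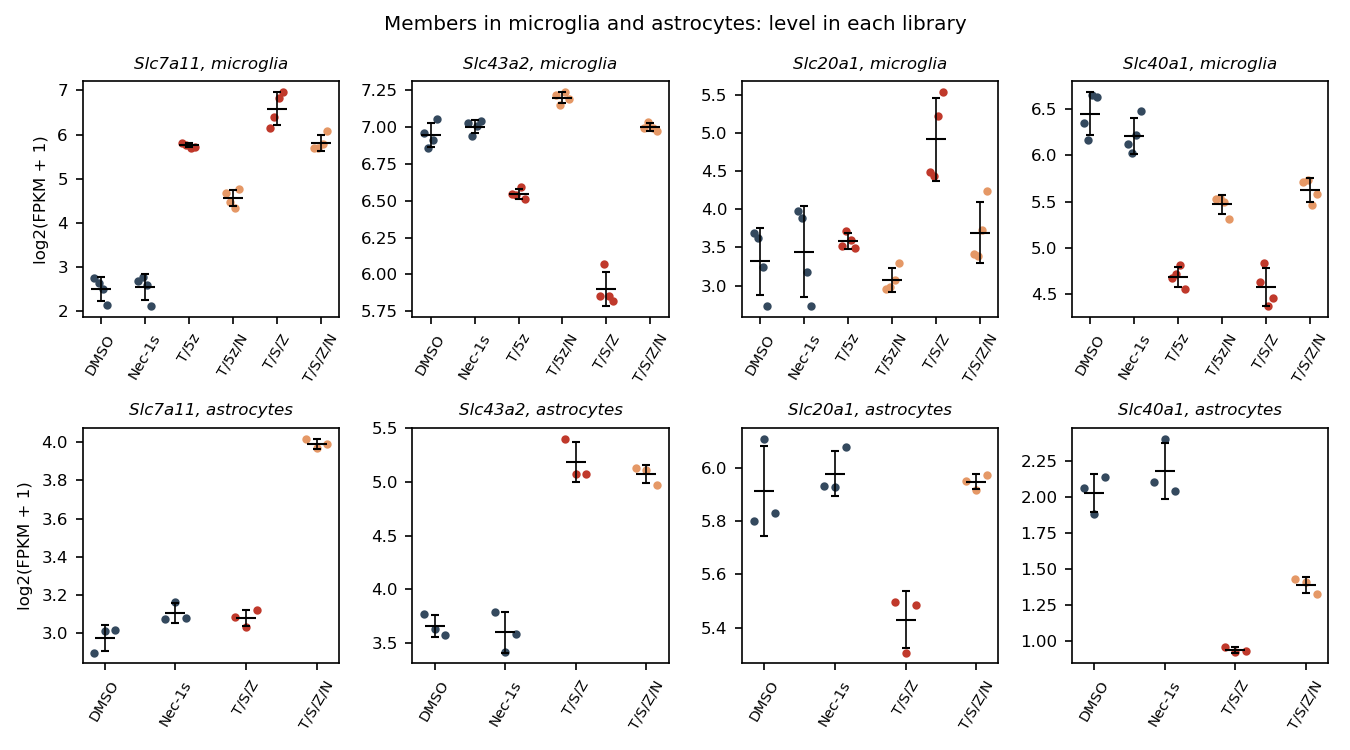
Level of Slc7a11, Slc43a2, Slc20a1 and Slc40a1, log2(FPKM + 1), in each microglial library (upper row, n = 4 per group) and astrocyte library (lower row, n = 3), with means and whiskers of 1 SD. Slc7a11 in astrocytes is highest in T/S/Z/N, at 3.97 to 4.02, and Slc43a2 falls with T/S/Z in microglia and is higher with T/S/Z in astrocytes.

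Some carriers have names that do not follow the pattern. Of 30 listed, 21 were tested in microglia, with 1 higher and 7 lower with T/5z and 3 higher and 6 lower with T/S/Z, and 24 in astrocytes, with 2 higher and 5 lower. These are 4.76% and 33.3%, 14.3% and 28.6%, and 8.33% and 20.8%, against 11.1% and 13.3%, 12.2% and 17.5%, and 6.39% and 8.99% of all tested genes. Slco4a1, an organic anion carrier, rose by 2.45 with T/S/Z and fell by 2.61 with Nec-1s, while Slco2b1, of the same family, fell by 2.03 with T/5z and by 2.35 with T/S/Z. Of 12 listed partners and regulators of carriers, 11 were tested in microglia. There 2 were higher and 0 lower with T/5z, and 3 higher and 1 lower with T/S/Z. These are 18.2% and 0%, then 27.3% and 9.09%, against 11.1% and 13.3%, then 12.2% and 17.5%, of all tested genes. In astrocytes 12 were tested, with 2 higher and 3 lower, 16.7% and 25% against 6.39% and 8.99%. Only called genes are named here. Hif1a, a transcription factor of the hypoxia response, rose by 1.27 with T/5z and by 1.54 with T/S/Z, Nfe2l2, a factor of antioxidant genes, by 1.02 and 0.96, and Atf4, which acts at the C/EBP-ATF response element, by 1.01 with T/S/Z. Txnip, which removes glucose carriers from the surface, fell by 1.98 with T/S/Z and rose by 1.37 when Nec-1s was added. In astrocytes Hif1a (0.93) and Atf4 (0.66) were higher with T/S/Z, and Txnip, Emb and Stk39 were lower. The part of any of these regulators in the members' levels was not tested.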

How the data were processed

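RNA of 24 microglial and 12 astrocyte libraries had been sequenced by the authors after mRNA enrichment, aligned and quantified in OmicSoft Array Studio, and deposited as log2 values per gene and library. Per the study's methods these deposited log2 values are log2 FPKM (fragments per kilobase of exon, relative to library size). That 1 was added before the log was inferred from the values (none below 0 in astrocytes, low values in even steps once 1 is subtracted), and the methods name a normalization step without saying which, after which the 75th percentile was 4.73 to 4.74 in the astrocyte and 4.11 to 4.16 in the microglial libraries. The aligner, genome build and annotation release are not given in the sources used here. In the microglial table each gene's mean over the 6 treatments was the same in all replicates (largest difference 6.67e-05, against 5.16 in astrocytes), and 18 of 24 libraries held negative values, though no tested member did. DSMO in the astrocyte sample titles was read as DMSO. All per-sample columns were used. The annotation marked 86 members in the microglial table and 98 in the astrocyte table as confounded, a mark it does not define, and reads shared with overlapping or near-identical genes could not be separated.

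Groups came from the sample titles. Each comparison was fitted with limma 3.58.1 in R 4.3.3 (lmFit, eBayes with a trend) on its own libraries, across all genes that passed a log2 value of 1 in at least 4 (microglia) or 3 (astrocytes) libraries, with the replicate number as a block, after the study's paired test, and 2-sided p-values adjusted by Benjamini-Hochberg over all genes tested. A call needed a fold over 1.5 and an adjusted p under 0.05. In the text, SE is the standard error of the log2 difference, and p-values measure only the spread between these libraries. The study's methods call its replicates biological, from separate litters, a statement not specific to these libraries. On simulated data with 100 genes changed by 1 on the log2 scale, the fit called 95% of them with 2 groups of 4 drawn from the 10524 microglial genes and 87% with 2 groups of 3 from the 13842 astrocyte genes. Low values stepped by what 1 read or fragment adds, within 0.1 of a whole multiple for 78.6% to 85.3% of low astrocyte values and 66.7% to 68.1% in replicate 4 of the microglia. Whole reads were not recovered, so no count model was used, and absolute depth is unknown.

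The members and gene lists were chosen with earlier results of these data known. Substrate groups followed the family number, whatever the single member moves. Members are named for the 8 largest changes in each direction per stimulus, the 5 largest per Nec-1s comparison and per T/S/Z against T/5z, the 3 largest per interaction, RIPK1-kinase dependence in at least 2 of 3 settings, the 5 highest DMSO levels, opposite calls between cell types, and 16 carriers of glutamate, cystine, arginine, glucose, lactate, metals, ions and other solutes whatever they did (1 of them is not reported here); other members illustrate their group. Alternatives were no filter, a mean log2 value of at least 3, 5 added before the log, quantile normalization, median centring, ordinary per-gene variance, all libraries in one fit, no replicate block and each replicate left out. Promoter sequences are from RefSeq.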

Additional observations from a re-analysis of the deposited data

Results flagged for a closer look

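In 13 of the 264 groups of 4 microglial libraries of named members, 1 library stood apart from the other 3 by more than Dixon's criterion, where chance gives about 1 in 20. In Slc3a2 these were replicate 4 of T/5z/N at 8.53 and of T/S/Z at 9.04. Slc7a7 stood at 5.09 and Slc23a2 at 4.63 in replicate 4 of Nec-1s, and Slc23a2 at 4.96 in replicate 3 of T/5z. Slc25a35 was at 0.74 in replicate 1 of T/5z/N. In replicate 4 of DMSO Slc37a2 was at 7.86, Slc46a1 at 3.87 and Slc46a3 at 3.39. Slc38a1 was at 3.01 in replicate 4 of T/5z and at 3.30 in replicate 1 of T/S/Z/N, Slc43a2 at 6.07 in replicate 2 of T/S/Z, and Slc45a4 at 2.24 in replicate 3 of T/5z.

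The effect of Nec-1s differed between the microglial stimuli for 10 named members by limma's interaction test, some of them named because of it. Of all 163 tested members 5.52% were called positive and 1.84% negative, against 3.77% and 2.7% of all tested genes. As the effect after T/5z minus that after T/S/Z, the difference was -0.82 for Slc2a6, -0.62 for Slc7a2 and -0.61 for Slc39a14. It was 0.64 for Slc6a8, 0.93 for Slc11a2, 0.81 for Slc16a1, 1.07 for Slc16a6, 0.72 for Slc20a1, 1.40 for Slc25a25 and 0.82 for Slc26a11.

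For 13 changes, every microglial replicate pair moved one way and every astrocyte pair the other, and the difference between the cell types was not tested. The pairs follow the replicate numbers, which the data do not show to pair the libraries. The same count over all genes was not made. With T/S/Z the microglial and astrocyte changes were 0.63 and -0.22 for Slc3a2, 0.44 and -0.28 for Slc16a1, 1.60 and -0.48 for Slc20a1, 1.42 and -0.17 for Slc31a1, -0.53 and 0.32 for Slc35c1, and -1.04 and 1.52 for Slc43a2. With Nec-1s added to T/S/Z they were -0.77 and 0.91 for Slc7a11, 0.82 and -0.42 for Slc12a9, -0.99 and 0.12 for Slc16a1, -1.23 and 0.52 for Slc20a1, -0.21 and 0.07 for Slc25a5, -0.19 and 0.31 for Slc31a1, and 0.67 and -0.37 for Slc35c1.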

How the results depend on the processing

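Over all alternatives run, 171 counts of called members stayed within 1.5 times the reported value and 16 did not, and of the changes of named members 1417 kept their direction and side of the threshold, 65 lost the call, 3 gained it and 13 changed sign. Counts fell with 5 added before the log: from 74 to 49 (T/S/Z), 23 to 13 (T/5z/N against T/5z), 26 to 13 (T/S/Z/N against T/S/Z), 37 to 24 (T/5z/N against DMSO), 23 to 14 (T/S/Z against T/5z), 12 to 7 (interaction), 26 to 13 (astrocytes, T/S/Z), and 20 to 11 and 20 to 13 (RIPK1-kinase-dependent with T/5z and T/S/Z). A mean level of at least 3 left 47 members called with T/S/Z in microglia, fewer being tested, and quantile normalization left 17 for T/S/Z/N against T/S/Z. With ordinary per-gene variance 5 members were called with T/S/Z in astrocytes, 0 for T/S/Z/N against T/S/Z and 0 against DMSO. Leaving out each replicate gave 58 to 65 (T/5z), 70 to 77 (T/S/Z), 20 to 27 and 23 to 25 (Nec-1s added), 36 to 39 and 46 to 54 (with Nec-1s, against DMSO), 17 to 25 (T/S/Z against T/5z), 8 to 11 (interaction), 18 to 22 and 18 to 19 (RIPK1-kinase-dependent), and, in astrocytes, 21 to 31 (T/S/Z), 1 to 5 (T/S/Z/N against T/S/Z), 14 to 18 (T/S/Z/N against DMSO) and 0 to 2 (RIPK1-kinase-dependent), with the 5 and the 2 without replicate 3. Changes whose sign turned were Slc25a3 with T/S/Z in microglia (-0.27, quantile) and astrocytes (-0.055, quantile, and -0.064 to 0.070 with a replicate left out), Slc25a4 in astrocytes (0.020, median centring, and -0.125 to 0.0149 with a replicate left out), Slc15a3 with T/5z in microglia (-0.014, quantile), and Slc12a2 with T/S/Z in microglia (0.20, quantile, 0.069, median centring, and -0.074 to 0.0115 with a replicate left out) and in astrocytes (0.0034, median centring). Where no construction explains a change, the cause was not tested. Without the replicate block every count was as reported except the interaction, 11 for 12, and all 130 named changes kept their side. Libraries of the same number correlated in their deviations by 0.138, 0.0303 and 0.0580 in astrocytes, against -0.0379 for different numbers, and by about -0.20 in microglia, where the adjustment of replicate means sets the sign, so the data do not show that the numbers pair the libraries, and the block follows the study's own test. Depth limits low members: the lowest tested stood on 12.8 steps.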
